A study of Mus musculus with 47 samples.

Results

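This report compares untreated microglia with no intact Apoe allele (Apoe-/-, called KO) with untreated microglia that keep 1 intact allele (Apoe+/-, called Het). Both came from 1 Jackson Laboratory line of C57BL/6 mice, so every cell compared carries at least 1 disrupted Apoe allele. The comparison takes 10 of the 47 libraries of the series, KO replicates 1 to 5 and Het replicates 1 to 5, chosen by genotype and treatment alone. The cells were primary forebrain microglia grown in medium with 10% fetal bovine serum, left unchallenged and collected at 24 h. Serum is a source of lipoproteins outside the cells. Untreated wild-type (WT) cells of another C57BL/6 stock (5 libraries) and the KO (5) and Het (4) cultures given myelin for 3 h and collected at 24 h are used below for reference. No label states the age or sex of the mice or whether a group's replicates are different animals. The p-values therefore reflect only how far libraries spread within groups, pooled over all 10 groups of the series in the fits below. Part of that spread may be technical.

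Apolipoprotein E is the main lipid carrier protein of the brain, secreted by astrocytes and by activated microglia, and it takes up cholesterol and phospholipid that the exporters Abca1 and Abcg1 move out of the cell. Its gene lies in a cluster with the smaller apolipoprotein genes Apoc1, Apoc4 and Apoc2, and its transcription is raised by the oxysterol sensors of the LXR family. In microglia it is a leading gene of the state found around amyloid plaques and damaged myelin. The comparison sets cells that cannot make the protein beside cells that can.

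RNA abundance was deposited as TPM, a relative abundance per transcript length. Levels below are scaled TPM, in which the nuclear protein-coding genes of each library were set to a common total and adjusted by a trimmed mean of ratios. That step was needed because a single non-coding RNA gene, Gm23935, took 71.9% to 81.2% of TPM in KO and 78.9% to 99.0% in Het libraries. Coding genes held 16.4% to 24.9% of TPM in the KO libraries. In Het replicates 1 to 5 they held 17.5%, 18.4%, 5.66%, 11.5% and 0.468%. The mean share was higher in KO by 10.15 percentage points (two-sided exact permutation p = 0.0317), and by 5.06 points without Het replicates 3 and 5 (exact permutation p = 0.125, with a smallest possible p of 0.0179). The content of the libraries thus moved with the genotype, and its part in the results was not tested. KO libraries correlated with each other at 0.978 to 0.989 on the log2 scale, Het replicates 1, 2 and 4 at 0.976 to 0.983, and the 5 Het libraries at 0.792 to 0.983. Of the defining genes of microglia, Csf1r, Trem2 and Cx3cr1 were abundant in both genotypes, whereas P2ry12 stood at 1.59 to 4.97 scaled TPM in KO and 1.72 to 4.09 in Het.

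Each gene was tested in a limma fit of all 47 libraries with a weight per library, called the weighted fit. It was tested again with no weights after removal of 4 Het libraries whose coding genes held under 6% of TPM (untreated replicates 3 and 5, myelin replicates 1 and 2), called the reduced fit. A gene is said below to be higher or lower, to have risen or to have fallen, where both fits called it in 1 direction at an adjusted p under 0.05. Differences are KO minus Het on the log2(scaled TPM + 1) scale ± SE from the weighted fit, with the adjusted p of that fit, unless said otherwise. Each SE and p rests on a spread pooled over all 10 groups, so neither measures the spread of the KO and Het libraries alone.

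Of 10887 genes tested, both fits called 1133 (10.4%), of which 774 were higher in KO (7.11%) and 359 lower (3.3%). Differences past 2-fold were found for 48 of the higher and 74 of the lower genes. The weighted fit alone called 1782 genes (16.4%), 1310 higher (12%) and 472 lower (4.34%), and the reduced fit called 1236 (11.4%). Scaled to the coding total without the trimmed mean, the weighted fit called 2558 genes higher and 374 lower, or 87.2% higher against 73.5%. Values of all 10 libraries did not overlap between the genotypes for 1335 genes (12.3%). The median difference over all genes was 0.10. The shares called in both fits, 7.11% higher and 3.3% lower, are the background for the list counts below.

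The number of genes called rests on a few Het libraries. Het replicate 1 held 50.6% of the weight of its group and replicate 4 held 26.7%. The weighted fit called 8 genes without Het replicate 1 and 6082 without Het replicate 4, where replicate 1 then took 99.8% of the group's weight. In the reduced fit, the removal of single libraries left between 574 genes without Het replicate 4 and 1358 without Het replicate 2. An unweighted fit of the 10 libraries alone called 40 genes, and one of all 47 libraries called 5024. Of 130 members of the gene lists called in both fits, 35 lost their call in the reduced fit without Het replicate 4, and those described below are named as such. The sign of 13 of the 130, 12 of them lower in KO, turned when all 10 libraries counted alike, and none of the 13 turned when Het replicate 5 was left out. They were Cd14, Tlr2, Junb, Zfp36, Sod2, Fth1, Spp1, Ch25h, Ctsz, Cd63, Mitf, Fcgr2b and Dgat2, with plain mean differences of -0.04 to 0.29 over the 10 libraries.

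**Figure D1:**
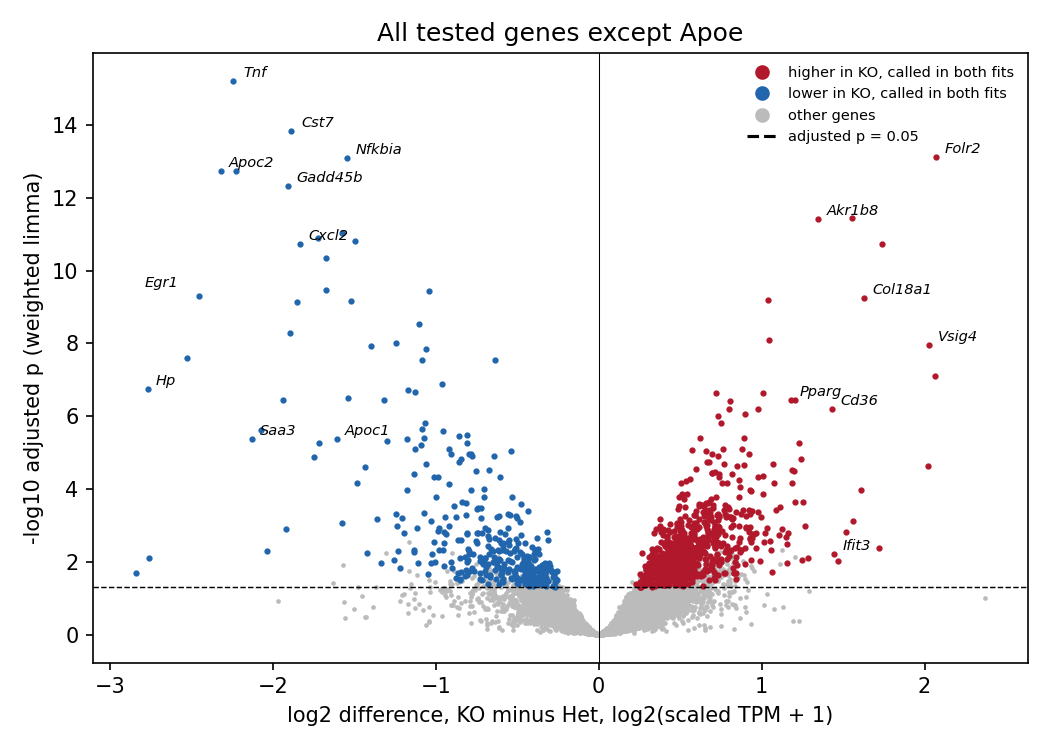
Each point is a tested gene other than Apoe, with the log2 difference (KO minus Het) of the weighted fit on the x axis and the -log10 adjusted p on the y axis. The 774 red points are higher and the blue points lower in KO in both fits. The lower genes reach further from 0 than the higher ones, with Hp at -2.77 among the labelled genes and Folr2 at 2.07 on the other side.

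The genotype labels were checked on Apoe itself, at chr7:19696109-19699188 in mm10. KO replicates 1 to 5 held 85.7, 69.3, 70.3, 74.5 and 79.7 scaled TPM. Het replicates 1 to 5 held 49911, 56624, 62757, 44825 and 7922 scaled TPM. The groups did not overlap, although Het replicate 5, with the least coding content, stood well below the other Het libraries. The mean log2 difference was -8.89 (two-sided exact permutation p = 0.00794, the smallest that 5 against 5 allow), and the fitted difference was -9.36 ± 0.22 (adjusted p = 1.1e-32). Untreated WT libraries held 46151 to 64964, and Het replicates 1 to 3 lay within that range. The fitted difference of Het from WT was -0.25 ± 0.22 (adjusted p = 0.32). The check thus separates KO from Het and does not tell Het from WT.

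Apoc2 and Apoc1, neighbours of Apoe in the apolipoprotein cluster, were both lower in KO. Apoc2, the activator of lipoprotein lipase, held 24.0, 29.4, 20.8, 28.8 and 34.6 scaled TPM in KO and 133.4, 148.4, 167.5, 123.7 and 76.7 in Het replicates 1 to 5. No KO value reached the lowest Het value, and the difference was -2.32 ± 0.18 (adjusted p = 1.9e-13). Apoc1, a small apolipoprotein of the same particles, held 19.0, 31.2, 20.1, 24.3 and 29.5 in KO and 65.2, 163.3, 118.7, 53.3 and 37.5 in Het. Its Het libraries varied more among themselves, with replicates 2 and 3 highest, and the difference was -1.61 ± 0.24 (adjusted p = 4.3e-06). Against WT, the differences were -2.71 for Apoc2 and -2.01 for Apoc1 in KO, and -0.39 and -0.40 in Het, values that share the KO and Het libraries with the first comparison.

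Other genes beside Apoe stood near the same level in KO and Het. The differences were -0.06 ± 0.24 for the mitochondrial import receptor Tomm40, -0.10 ± 0.30 for Apoc4, 0.01 ± 0.11 for the adhesion molecule Nectin2 and 0.06 ± 0.18 for the NF-kB subunit Relb, none of them called in either fit. Clptm1 rose by 0.44 ± 0.14, a call lost in the reduced fit without Het replicate 4. Both genotypes of the line differed from WT at several of these genes. Tomm40 held 80.8 to 88.4 scaled TPM in KO and 28.7 to 97.7 in Het, against 16.1 to 47.9 in WT. Relb held 47.1 to 58.1 in KO and 26.4 to 54.1 in Het, against 12.1 to 22.3 in WT. Nectin2 went the other way, at 15.3 to 19.1 in KO, 9.06 to 18.9 in Het and 46.7 to 54.1 in WT. With KO and Het side by side these differences from WT do not appear.

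Over the chromosome as a whole, genes near Apoe were called at about the rate of all genes. Within 5 Mb of Apoe, without Apoe itself, the weighted fit called 13 of 68 genes (19.1%) and both fits called 9 (13.2%). Among the 9 were Apoc1, Apoc2, Clptm1, the poliovirus receptor homologue Pvr and the urokinase receptor Plaur. The weighted fit called 27 of 191 (14.1%) between 5 and 20 Mb, 85 of 553 (15.4%) further along the chromosome and 1656 of 10074 (16.4%) on other chromosomes. Both fits called 7.33% of genes between 5 and 20 Mb, 8.86% further along the chromosome and 10.5% on other chromosomes. These are counts with no test.

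**Figure D2:**
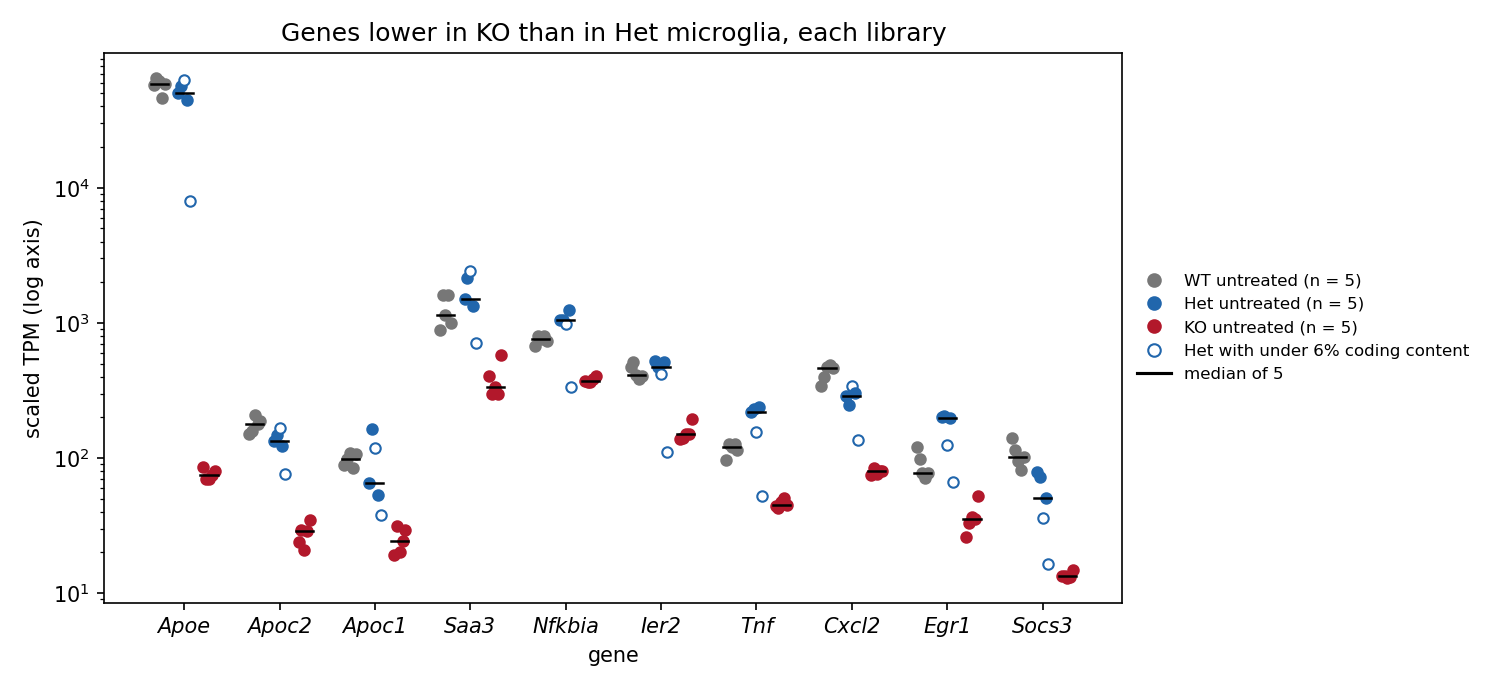
Scaled TPM (log axis) of 10 genes lower in KO, with each point 1 untreated library of WT (grey), Het (blue) or KO (red) and a bar at the median of 5. The 2 Het libraries under 6% coding content are open points, and Het replicate 5 is the lowest Het point for each gene. For Tnf the KO points lie between 42.9 and 50.4, and for Apoe between 69.3 and 85.7.

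Transcripts of inflammatory cytokines and of NF-kB target genes were lower in KO. Of 26 list members tested, both fits called 12 lower and 2 higher, and the list's median difference was -0.50 beside 0.10 over all genes. Tnf, the cytokine tumour necrosis factor, held 44.5, 42.9, 47.6, 50.4 and 44.9 scaled TPM in KO and 220.0, 231.5, 154.8, 239.1 and 52.6 in Het replicates 1 to 5. The KO libraries were tightly grouped below all Het libraries, with Het replicate 5 close to the highest of them. The difference was -2.25 ± 0.14 (adjusted p = 6.1e-16). WT libraries held 96.6 to 126.4, between the KO values and those of Het replicates 1 to 4.

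Nfkbia, which encodes the inhibitor that holds NF-kB in the cytoplasm and is itself an NF-kB target, held 373.6, 367.8, 363.0, 384.3 and 407.0 in KO. In Het it held 1058, 1058, 985.4, 1247 and 334.5, so that Het replicate 5 lay below all KO values while the other 4 lay above them. The difference was -1.54 ± 0.11 (adjusted p = 8.3e-14). Socs3, the feedback inhibitor of cytokine receptors that signal through Stat3, held 13.46, 13.43, 13.02, 13.05 and 14.90 in KO and 78.8, 72.8, 35.9, 50.9 and 16.3 in Het. Here all Het values were above all KO values (-2.23 ± 0.17, adjusted p = 1.9e-13), and WT libraries were higher still, at 81.8 to 139.7. Saa3, an acute phase apolipoprotein, held 296.6 to 576.8 in KO and 705.1 to 2430 in Het (-2.13 ± 0.31).

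Among the other members, Il1a (-1.90 ± 0.21) and Il1b (-1.54 ± 0.20), the 2 interleukin 1 cytokines, were lower, as were the inflammasome sensor Nlrp3 (-0.99 ± 0.17) and the NF-kB feedback genes Tnfaip3 (-1.09 ± 0.16) and Nfkbiz (-1.07 ± 0.15). Il1b held 197.1 ± 25.1 scaled TPM in KO (SD, n = 5) and 537.2 ± 148 in Het replicates 1, 2 and 4 (SD, n = 3). The receptors of bacterial products were divided. Cd14 (-0.61 ± 0.12) and Tlr2 (-0.52 ± 0.15) were lower, and Tlr4 was higher by 0.70 ± 0.19, a call lost without Het replicate 4 in the reduced fit. The second higher member was Lcn2 (0.90 ± 0.25), an iron-sequestering acute phase protein. Haptoglobin (Hp), a further acute phase gene outside the list, held 2.11 to 5.90 in KO and 22.0, 20.3, 28.2, 53.8 and 5.53 in Het replicates 1 to 5 (-2.77 ± 0.35), overlapping at Het replicate 5.

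Chemokines followed with 7 of 18 members lower and 2 higher, and a list median of -0.17. Cxcl2, a neutrophil attractant, held 74.9, 84.3, 75.6, 80.2 and 79.9 scaled TPM in KO and 286.1, 244.7, 340.2, 302.1 and 134.8 in Het. The groups did not overlap and differed by -1.83 ± 0.16 (adjusted p = 1.9e-11). Ccrl2, an atypical receptor that binds the chemoattractant chemerin, held 48.4 to 57.6 in KO and 186.3, 177.9, 90.6, 149.1 and 19.4 in Het (-1.67 ± 0.15), with Het replicate 5 again below the KO range. Ccl5 (-1.24 ± 0.14), Cxcl10 (-1.24 ± 0.26), Cxcl1 (-1.18 ± 0.21), Ccl3 (-0.86 ± 0.12) and Ccl4 (-0.60 ± 0.13) were also lower. Ccl9 (0.89 ± 0.14) and Ccl6 (0.50 ± 0.13), a pair of related CC chemokines, were higher in KO. The monocyte attractant Ccl2 was not called, with a difference of 0.02 ± 0.20.

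Of 23 immediate early genes, transcribed within minutes of a stimulus, 9 were lower, 0 were higher and the median difference was -0.31. Egr1, a zinc finger transcription factor, held 25.9, 32.9, 36.4, 35.4 and 52.7 scaled TPM in KO and 201.9, 206.3, 125.7, 199.4 and 66.0 in Het. All KO values were below all Het values (-2.45 ± 0.24, adjusted p = 4.9e-10), while WT lay between, at 70.6 to 121.0. Ier2 held 137.5 to 193.5 in KO and 521.1, 470.9, 416.2, 514.8 and 110.7 in Het (-1.72 ± 0.15), where the Het value below the KO range was replicate 5. The phosphatase Dusp2 (-2.07 ± 0.29), the orphan nuclear receptor Nr4a1 (-1.52 ± 0.15) and Ier3 (-1.50 ± 0.13) were lower too. Smaller differences were those of the growth arrest gene Btg2 (-0.95 ± 0.14), the AP-1 subunits Jun (-0.81 ± 0.24) and Junb (-0.70 ± 0.13), and Zfp36 (-0.54 ± 0.11), whose product destabilises cytokine transcripts. Of these only Jun lost its call in the reduced fit without Het replicate 4. Gadd45b, a stress gene outside the list, held 25.3 to 41.5 in KO and 73.1 to 140.6 in Het (-1.91 ± 0.15).

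The promoters of 4 genes of the lower inflammatory group are shown because they hold the NF-kB consensus within the 250 bases before the transcription start. They were read from RefSeq promoter windows of GRCm38.p6, the assembly of mm10, on the strand of each gene, and capitals mark the matches, searched on both strands.
Nfkbia, chr12:55492648-55492897, minus strand: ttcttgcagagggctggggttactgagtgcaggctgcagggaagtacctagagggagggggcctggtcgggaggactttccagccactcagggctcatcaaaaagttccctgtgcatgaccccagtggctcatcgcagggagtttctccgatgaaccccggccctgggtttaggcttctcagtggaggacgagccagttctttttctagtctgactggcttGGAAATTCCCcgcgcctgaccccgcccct
Cxcl2, chr5:90903649-90903898, plus strand: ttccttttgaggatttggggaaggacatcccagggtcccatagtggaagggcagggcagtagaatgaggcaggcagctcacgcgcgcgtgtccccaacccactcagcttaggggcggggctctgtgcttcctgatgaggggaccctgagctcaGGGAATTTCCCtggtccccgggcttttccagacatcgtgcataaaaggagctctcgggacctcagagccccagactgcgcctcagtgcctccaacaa
Ier3, chr17:35821463-35821712, plus strand: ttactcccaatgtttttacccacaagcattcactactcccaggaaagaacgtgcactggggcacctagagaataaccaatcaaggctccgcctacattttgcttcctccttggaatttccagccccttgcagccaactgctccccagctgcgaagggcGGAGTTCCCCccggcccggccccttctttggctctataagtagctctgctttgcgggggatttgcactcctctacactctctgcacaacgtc
Ccrl2, chr9:111057519-111057768, minus strand: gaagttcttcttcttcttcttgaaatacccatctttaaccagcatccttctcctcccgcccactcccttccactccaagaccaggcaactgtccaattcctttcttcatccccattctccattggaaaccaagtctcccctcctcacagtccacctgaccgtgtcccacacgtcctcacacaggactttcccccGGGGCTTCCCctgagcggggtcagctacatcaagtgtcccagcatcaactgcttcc

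The matches lie 19 bases before the start in Nfkbia, 82 in Ier3 and 46 in Ccrl2, and a pair of overlapping matches on opposite strands lies 86 and 87 bases before it in Cxcl2. The consensus was found for 7 of the 22 named lower genes that have a window (31.8%) and for 2 of the 26 named higher genes (7.69%), beside 8.23% of 27025 genes in the table. The named lower genes include members of a list of NF-kB targets and were partly chosen for their size of difference, so the shares are a description of these genes. Of all windows of this length, 7.25% hold a match, and a match is not evidence of binding.

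Against these lower groups stood genes that were higher in KO, led by receptors of phagocytes. Folr2, the folate receptor of tissue macrophages, held 133.2, 130.1, 135.8, 149.1 and 156.6 scaled TPM in KO and 34.7, 37.1, 38.0, 26.1 and 4.98 in Het. The groups were far apart (2.07 ± 0.15, adjusted p = 7.8e-14), and WT libraries, at 26.3 to 33.8, lay with the Het libraries. Vsig4, a receptor for complement C3 fragments, held 24.3, 23.1, 30.1, 30.9 and 27.5 in KO and 8.06, 5.89, 5.01, 3.36 and 0.764 in Het (2.03 ± 0.23, adjusted p = 1.1e-08), again without overlap. Akr1b8, an aldo-keto reductase, held 167.3 to 197.4 in KO and 68.9, 76.2, 72.0, 69.5 and 19.5 in Het (1.35 ± 0.11). Pcp4l1, a small calmodulin-related protein, differed by 1.56 ± 0.13, the heparan sulfate proteoglycan Sdc3 by 1.24 ± 0.20 and the growth factor binder Igfbp4 by 1.11 ± 0.21. For Pcp4l1, Sdc3 and Akr1b8 the Het and WT libraries stood at like levels, with fitted differences from WT of -0.22, 0.02 and -0.02 in Het and 1.34, 1.27 and 1.33 in KO.

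Col18a1, the collagen from which endostatin is cleaved, showed another order. It held 30.7, 27.7, 23.8, 20.5 and 45.5 in KO and 9.35, 7.84, 6.94, 6.85 and 4.02 in Het (1.63 ± 0.16, adjusted p = 5.7e-10), and WT libraries held 23.6 to 35.6. KO libraries overlapped the WT range, and all Het libraries lay below both.

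**Figure D3:**
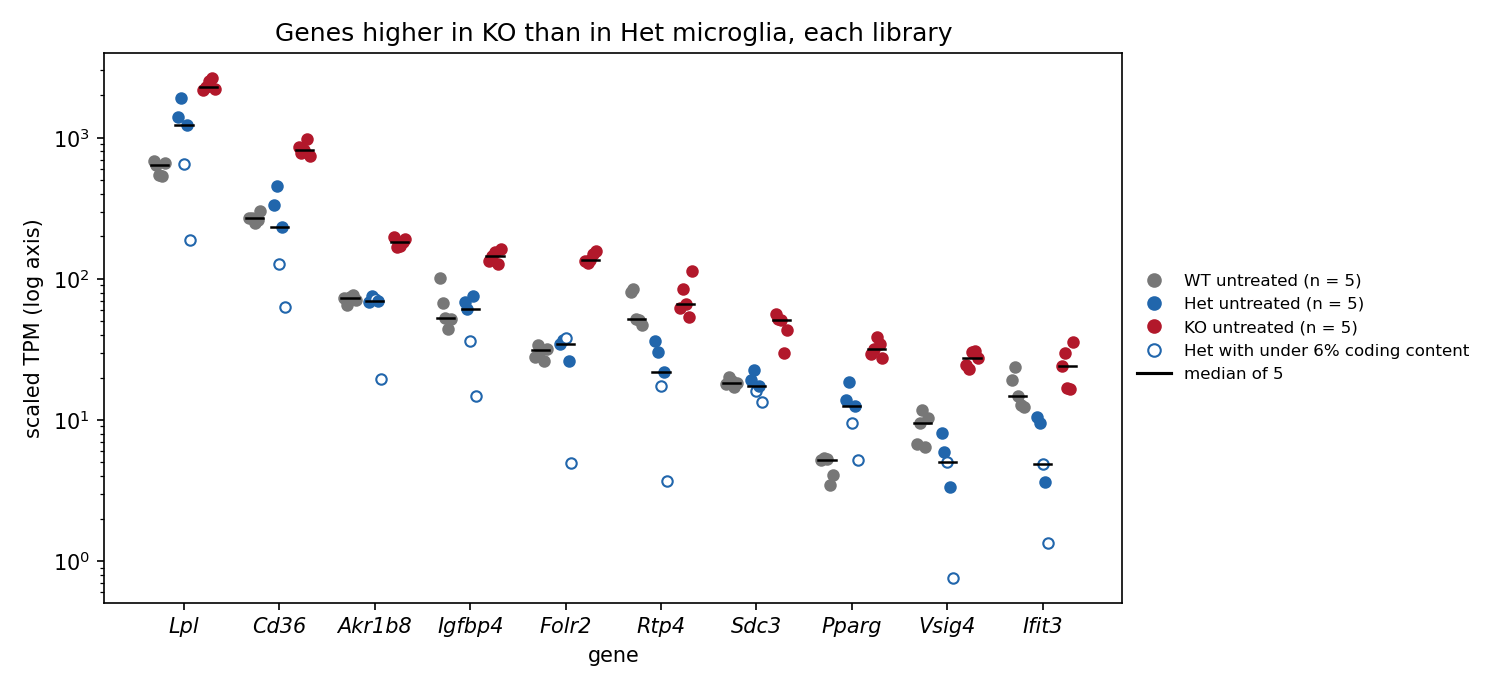
Scaled TPM (log axis) of 10 genes higher in KO, with each point 1 untreated library of WT (grey), Het (blue, open under 6% coding content) or KO (red) and a bar at the median of 5. KO and Het points do not overlap for these genes. For Folr2 the KO points lie between 130.1 and 156.6, and for Ifit3 the WT points, at 12.3 to 23.9, overlap the KO points.

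Genes of lipid uptake, storage and breakdown changed in both directions. Of 27 members tested, 8 were higher and 5 lower, with a median of 0.25, and the reduced fit without Het replicate 4 left 4 of the list higher and 5 lower. Cd36, a scavenger receptor that takes up long-chain fatty acids and oxidised lipoproteins, held 867.7, 777.7, 814.7, 986.8 and 742.0 scaled TPM in KO and 335.4, 454.0, 126.7, 234.0 and 63.7 in Het (1.43 ± 0.19, adjusted p = 6.3e-07). No Het library reached the KO range, and WT libraries held 249.6 to 300.9. Pparg, the nuclear receptor that drives Cd36 and lipid storage genes in macrophages, held 29.2, 31.9, 38.5, 34.6 and 27.6 in KO, 13.9, 18.7, 9.60, 12.5 and 5.18 in Het, and 3.49 to 5.38 in WT. It differed between KO and Het by 1.18 ± 0.15 (adjusted p = 3.6e-07), and every KO and every Het library but replicate 5 exceeded the WT range.

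Lpl, the lipase that frees fatty acids from lipoproteins and is activated by apolipoprotein C2, held 2189 to 2655 in KO and 1396, 1929, 655.9, 1229 and 189.5 in Het (0.79 ± 0.15). The Het libraries under 6% coding content were the lowest, and the call was lost in the reduced fit without Het replicate 4. The droplet coat protein Plin2 (0.43 ± 0.09), the enzymes of triglyceride assembly Dgat1 (0.36 ± 0.10) and Dgat2 (0.64 ± 0.19), and Cpt1a (0.53 ± 0.14), the gate of mitochondrial fatty acid oxidation, were higher. Plin2, Dgat1 and Cpt1a lost their call as Lpl did. Dgat2 was low, at 1.68, 1.52, 1.73, 2.11 and 2.47 scaled TPM in KO and 0.702, 0.540, 3.74, 0.940 and 8.43 in Het, so that both Het libraries under 6% coding content lay above all KO libraries and the other 3 below them. The fatty acid binder Fabp7 (0.86 ± 0.18) is also an astrocyte gene. The other fatty acid binders Fabp4 (-0.74 ± 0.14), Fabp3 (-0.67 ± 0.11) and Fabp5 (-0.51 ± 0.10) were lower, as were Hilpda (-1.08 ± 0.13), an inhibitor of droplet lipolysis that is also induced by hypoxia, and Mgll (-1.06 ± 0.17), the monoglyceride lipase. Hilpda held 44.0 to 56.3 in KO and 103.0, 88.4, 63.6, 121.2 and 20.9 in Het.

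Genes of sterol synthesis and uptake differed by small amounts. Of 25 tested, 3 were higher and 0 lower, beside 7.11% and 3.3% of all genes. The list median was 0.24, beside 0.10 over all genes. Summed levels of the list were 1409 to 1524 scaled TPM in KO, 1216 to 1373 in Het replicates 1, 2 and 4 and 367 to 1373 in all Het libraries. Srebf2, the transcription factor of sterol synthesis, held 88.5 to 102.5 scaled TPM in KO and 81.5, 67.4, 58.0, 72.9 and 18.9 in Het (0.31 ± 0.09, adjusted p = 0.019). The squalene epoxidase Sqle (0.38 ± 0.11) and the sterol dehydrogenase Nsdhl (0.44 ± 0.11) were the other 2, of which the Sqle call was lost in the reduced fit without Het replicate 4 and the Srebf2 call without Het replicate 2.

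Among 22 apolipoprotein, LXR target and efflux genes, 4 were lower and 2 higher, beside 3.3% and 7.11% of all genes, with a median of 0.02. The lower ones were Apoe, the disrupted gene itself, with Apoc2, Apoc1 and the oxysterol-making enzyme Ch25h (-0.53 ± 0.15). The Ch25h call was lost in the reduced fit without Het replicate 4. The sensor LXR alpha itself (Nr1h3, 0.59 ± 0.12) was among the higher ones, and lost its call in that fit too, where 0 of the list were called higher. The exporter Abca1 held 53.8 to 59.0 in KO and 79.2, 85.7, 39.6, 55.3 and 15.1 in Het, a difference of -0.34 ± 0.15 that was not called. Abcg1 held 11.5 to 12.6 in KO and 6.85, 25.6, 4.10, 4.65 and 2.29 in Het, where replicate 2 stood apart, and was called by the weighted fit only.

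Lysosomal genes showed 3 higher and 3 lower of 38, beside 7.11% higher and 3.3% lower of all genes. Their median of 0.10 equalled that of all genes. Lipa, the acid lipase that frees cholesterol from its esters, held 726.9 to 868.6 scaled TPM in KO, 536.8, 576.5, 300.5, 464.4 and 92.0 in Het and 324.2 to 400.2 in WT (0.62 ± 0.12, adjusted p = 0.00028). KO was thus above Het and WT in all libraries. The acid sphingomyelinase Smpd1 (0.35 ± 0.11) and the cathepsin Ctsk (0.70 ± 0.19) were the other higher genes. The Smpd1 call was lost in the reduced fit without Het replicate 4, and that of Ctsk without Het replicate 2. The lower ones were Ctsz (-0.36 ± 0.11), the tetraspanin Cd63 (-0.33 ± 0.11) and the factor Mitf (-0.30 ± 0.08). In the unweighted fit of the 10 libraries their differences were 0.16, 0.14 and 0.02. Plain means without Het replicate 5 gave -0.32, -0.29 and -0.27. The abundant protease Ctsd was not called (0.07 ± 0.13).

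Receptors of phagocytosis, complement and antibodies had 8 of 28 members higher and 2 lower, with a median of 0.21, and 4 and 2 in the reduced fit without Het replicate 4. After Cd36, the mannose receptor Mrc1 (0.77 ± 0.12), the integrin Itgam (0.62 ± 0.16), the Fc receptor Fcgr1 (0.60 ± 0.16), the lipoprotein receptors Scarb1 (0.50 ± 0.10) and Lrp1 (0.38 ± 0.11), and the bridging protein Mfge8 (0.45 ± 0.11) were higher. Itgam, Fcgr1 and Lrp1 were among those lost without Het replicate 4, and Itgam was lost without KO replicate 1 as well. Lrp1 is itself a receptor for apolipoprotein E. The inhibitory Fc receptor Fcgr2b (-0.41 ± 0.13) and the scavenger receptor Marco (-1.71 ± 0.25) were lower. Marco held 31.2, 22.8, 24.0, 28.0 and 27.0 in KO and 109.2, 86.0, 92.7, 58.8 and 28.2 in Het, with Het replicate 5 among the KO values and WT at 22.5 to 38.0. It was the Het libraries that stood apart from both other genotypes.

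Of 20 homeostatic microglia genes, 3 were higher and 0 lower, beside 7.11% and 3.3% of all genes, and the median was 0.13. They were Csf1r (0.53 ± 0.14), the receptor on which microglia depend, Itgam and Fcrls (0.67 ± 0.14), and all 3 lost their call in the reduced fit without Het replicate 4. Csf1r held 864.5 to 1059 scaled TPM in KO and 740.4, 656.0, 393.3, 522.2 and 93.0 in Het. Tmem119 (0.36 ± 0.14, adjusted p = 0.072), Cx3cr1 (0.22 ± 0.13) and P2ry12 (0.24 ± 0.25) were not called.

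In the list of disease-associated microglia 6 of 25 were lower and 2 higher, beside 3.3% and 7.11% of all genes, with a median of -0.07. Cst7, the cystatin F inhibitor of lysosomal proteases, held 8.74, 12.5, 10.1, 8.11 and 9.37 in KO and 39.7, 45.1, 31.2, 37.1 and 6.07 in Het (-1.89 ± 0.13, adjusted p = 1.5e-14), and WT held 11.6 to 16.7. Osteopontin (Spp1, -0.47 ± 0.13) and ferritin heavy chain (Fth1, -0.41 ± 0.10) were lower as well, together with Ch25h, Cd63 and Apoe, the disrupted gene itself. When all 10 libraries counted alike, Spp1, Fth1, Ch25h and Cd63 turned sign, at 0.29, 0.09, 0.05 and 0.14. They did not turn when Het replicate 5 was left out. Lpl and Ccl6 were the 2 higher ones. Ch25h and Lpl were not called in the reduced fit without Het replicate 4. Trem2, the lipid receptor on which this state depends, held 1418 to 1700 in KO and 1396, 1598, 1989, 1354 and 475.4 in Het (0.12 ± 0.12, not called), and Gpnmb was not called either (-0.11 ± 0.13).

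Interferon-stimulated genes had 9 of 28 members higher and 1 lower, with a list median of 0.52 in the weighted fit and 0.56 in the reduced fit. Ifit3, an antiviral protein, held 24.1, 29.7, 16.9, 16.5 and 36.0 scaled TPM in KO and 10.5, 9.60, 4.85, 3.66 and 1.34 in Het (1.45 ± 0.37, adjusted p = 0.0061). KO was above Het in all libraries but varied more than 2-fold, and WT, at 12.3 to 23.9, overlapped KO. Rtp4, a chaperone induced by interferon, held 53.7 to 113.4 in KO, 36.6, 30.3, 17.3, 22.0 and 3.71 in Het and 47.3 to 85.4 in WT (1.25 ± 0.33). Oas2 (1.27 ± 0.27), Ifit2 (1.15 ± 0.27), the factor Irf7 (1.06 ± 0.32), Ifi27l2a (0.84 ± 0.27), Oasl2 (0.83 ± 0.25), Stat2 (0.73 ± 0.20) and Ifitm3 (0.69 ± 0.20) were the rest. Irf1, which is also an NF-kB target, was lower (-0.59 ± 0.14). Most calls of the group were lost without 1 library. The reduced fit without Het replicate 4 left 2 members higher, Oas2 and Ifitm3, and 1 lower. The list median was then 0.41, beside 0.04 over all genes. That fit keeps only Het replicates 1 and 2 of the untreated Het libraries, and its calls over all genes fell from 1236 to 574. Ifit3, Rtp4, Ifit2, Irf7, Ifi27l2a, Oasl2 and Stat2 were then no longer called, with differences from 0.68 (Stat2) to 1.15 (Ifit3) in that fit.

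The window before Ifit3 is shown because it holds a pair of matches to GAAANNGAAA, the core of the element bound by interferon-activated factors, both on the reverse strand and in capitals.
Ifit3, chr19:34583279-34583528, plus strand: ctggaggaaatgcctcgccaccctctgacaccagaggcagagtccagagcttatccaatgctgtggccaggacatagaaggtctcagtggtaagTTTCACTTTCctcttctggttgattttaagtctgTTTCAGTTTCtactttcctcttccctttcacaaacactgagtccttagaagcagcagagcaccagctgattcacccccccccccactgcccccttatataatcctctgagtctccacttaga
They end 146 and 112 bases before the start. The core was found for 1 of 26 named higher genes, 1 of 22 named lower genes (Saa3) and 3.46% of all genes with a window (2.98% of windows), so it did not mark the named genes as a group.

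Antigen presentation by MHC class I did not differ by these tests, with 0 of 15 members called in both fits and a median of 0.01. B2m, the light chain of class I molecules, held 2947 to 3763 scaled TPM in KO and 3557, 3646, 2531, 3551 and 535.6 in Het (-0.07 ± 0.14). Of 8 class II genes tested 1 was lower, the costimulatory Cd86 (-0.85 ± 0.13, adjusted p = 1.5e-05), at 18.2 to 20.9 in KO and 38.8, 38.0, 28.9, 32.5 and 19.8 in Het.

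Among 25 antioxidant genes 6 were higher and 4 lower, with a median of 0.08. Slc7a11, the cystine importer that feeds glutathione synthesis, held 24.2, 15.7, 17.1, 17.9 and 18.2 in KO and 69.3, 38.6, 36.5, 68.2 and 16.7 in Het (-1.67 ± 0.16, adjusted p = 3.3e-10), with overlap at Het replicate 5. Sod2 (-0.56 ± 0.13), Prdx5 (-0.50 ± 0.10) and Fth1 were lower too. The NADPH-making enzymes G6pdx (0.61 ± 0.12) and Me1 (0.74 ± 0.15), catalase (Cat, 0.64 ± 0.15), Srxn1 (0.53 ± 0.13), Gsta4 (0.71 ± 0.22) and Keap1 (0.34 ± 0.12), the inhibitor of NRF2, were higher. Cat and Keap1 lost their call in the reduced fit without Het replicate 4, and Me1 without Het replicate 1. G6pdx held 212.2 to 270.5 in KO and 34.3 to 175.0 in Het.

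In the list of ATF4 and unfolded protein response genes, 7 of 26 were lower and 1 higher, with a median of -0.05. ATF4 is the factor of the amino acid stress response. Beside Slc7a11 the lower ones were Trib3 (-0.63 ± 0.17), the serine synthesis enzyme Phgdh (-0.55 ± 0.15), asparagine synthetase Asns (-0.50 ± 0.12), the mitochondrial folate enzyme Mthfd2 (-0.48 ± 0.11), Chac1 (-0.42 ± 0.14) and Atf4 itself (-0.30 ± 0.08). The Atf4 call was lost in the reduced fit without Het replicate 4. The chaperone Calr was higher (0.38 ± 0.08), a call lost in the reduced fit without Het replicate 1 or 4 or KO replicate 2, 3, 4 or 5. Of 23 glycolysis and hypoxia genes, 3 were higher and 4 lower, beside 7.11% and 3.3% of all genes. The higher ones were the glycolytic enzymes Hk1 (0.55 ± 0.14), Pfkp (0.38 ± 0.11) and Pkm (0.35 ± 0.09), of which Hk1 and Pfkp lost their call without Het replicate 4. Pgam1 (-0.32 ± 0.07), Pfkfb3 (-0.42 ± 0.13), the oxygen sensor Egln3 (-0.78 ± 0.12) and Hilpda were lower.

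DNA replication and mitosis genes were higher in 9 of 30 cases and lower in 0, with a median of 0.43. Mcm6, a subunit of the replicative helicase, held 40.2, 40.6, 43.8, 45.4 and 39.0 scaled TPM in KO and 29.8, 33.9, 17.0, 22.5 and 5.66 in Het (0.60 ± 0.10, adjusted p = 2.9e-05). The groups did not overlap, and WT libraries were higher than both, at 50.7 to 60.7. Mcm4 (0.78 ± 0.16), Mcm5 (0.58 ± 0.14), the cyclins Ccnb1 (0.90 ± 0.22) and Ccnb2 (0.81 ± 0.16), the kinase Aurkb (0.72 ± 0.15) with its partners Birc5 (0.67 ± 0.20) and Cdca8 (0.48 ± 0.14), and Stmn1 (0.51 ± 0.09) were the others. The reduced fit with single libraries left out called 5 to 14 members higher, with 14 without Het replicate 4, where Mcm4 was not among them.

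No cytosolic ribosomal protein gene (0 of 41) and no nuclear gene of the respiratory chain (0 of 34) was called in both fits. Their medians were -0.20 and -0.11. Rps29 held 1259 to 1802 in KO and 1349, 1615, 4126, 1371 and 1035 in Het, with replicate 3 apart (0.06 ± 0.16), and Cox4i1 differed by -0.21 ± 0.11 (adjusted p = 0.18).

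**Figure D4:**
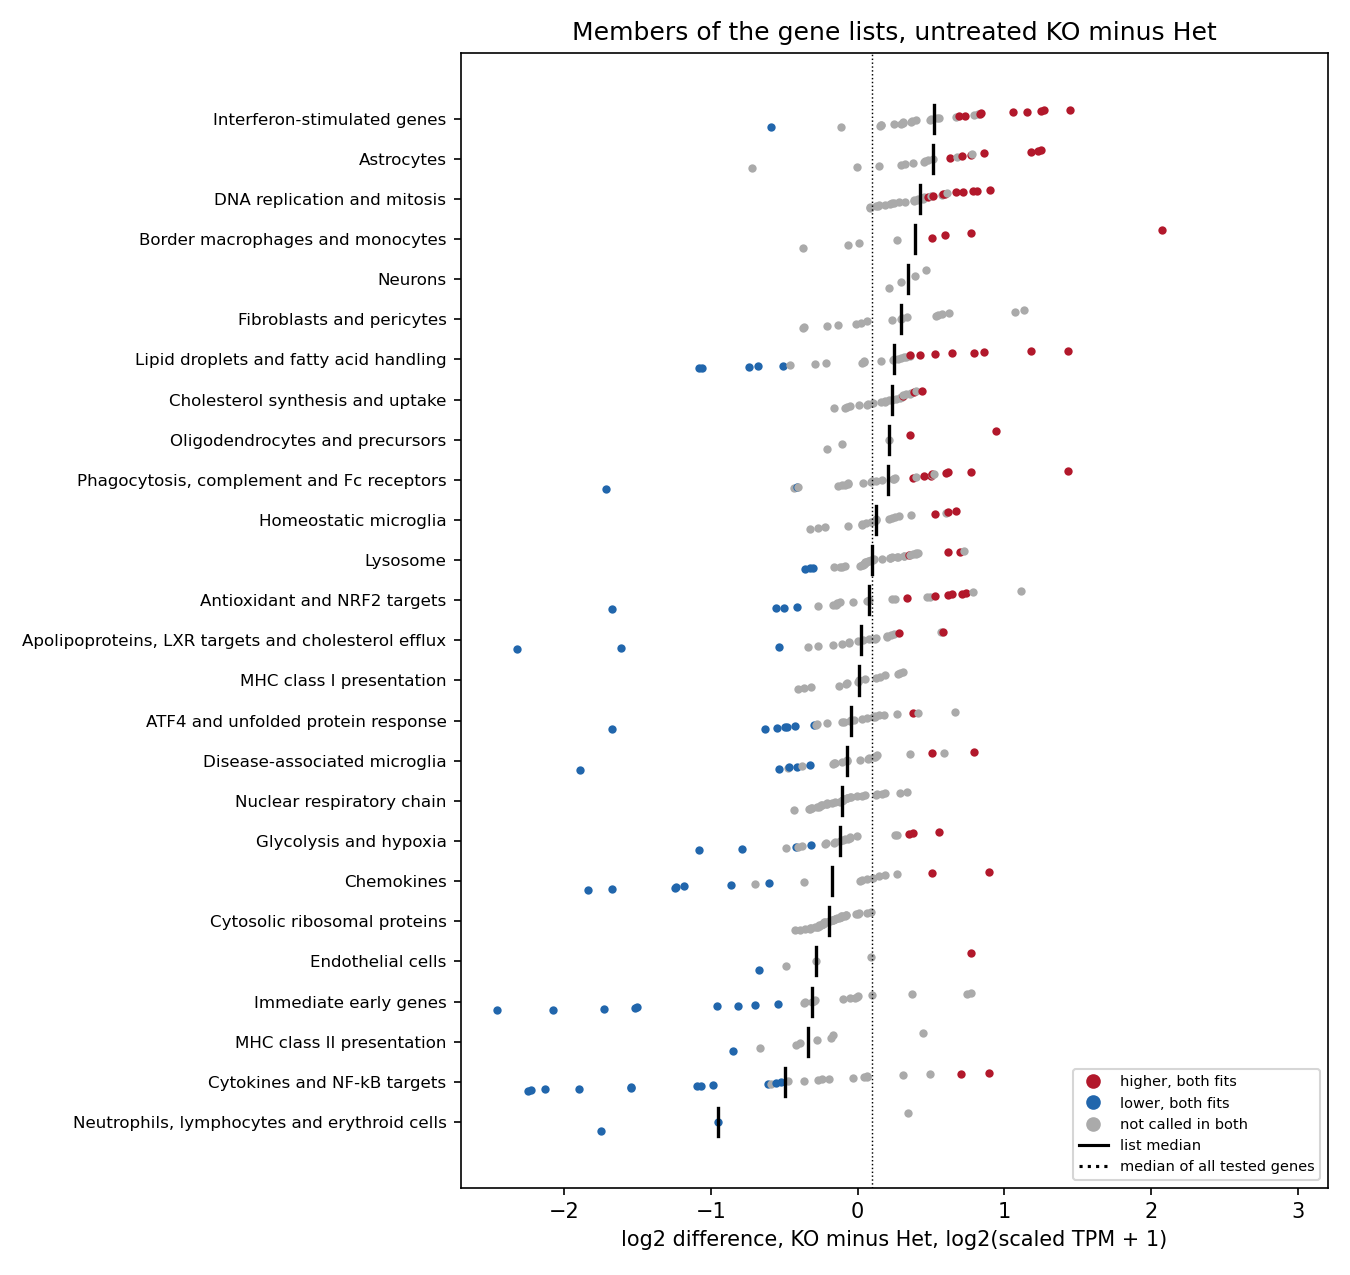
Each row is a gene list and each point a tested member other than Apoe, placed by its log2 difference (KO minus Het) in the weighted fit, coloured where both fits called it. Black bars are list medians, from -0.95 for neutrophil, lymphocyte and erythroid markers (3 genes) to 0.52 for interferon-stimulated genes, and the dotted line is the median of all genes, 0.10.

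Markers of some other cell types, mainly astrocytes, also moved with the genotype. Of 19 astrocyte genes, 7 were higher in KO and 0 lower, with a median of 0.51. Their summed level was 218.2 to 275.4 scaled TPM in KO and 85.0 to 163.5 in Het replicates 1, 2 and 4 (85.0 to 189.0 in all Het libraries), and Ntsr2 was under 1 in all 10 libraries. Aqp4, the water channel of astrocyte endfeet, held 7.96, 11.2, 11.7, 6.46 and 9.57 in KO, 3.63, 1.39, 0.972, 6.04 and 1.94 in Het and 10.7 to 17.7 in WT (1.25 ± 0.23). Clu (1.18 ± 0.20), Mlc1 (1.23 ± 0.18), Fabp7, Aldh1l1 (0.77 ± 0.15), Mt3 (0.71 ± 0.24) and Slc1a3 (0.63 ± 0.19) were the others. Mt3 lost its call in the reduced fit without Het replicate 4, where the list median was 0.76. Gfap held 22.4 to 42.3 in KO and 32.0, 11.1, 17.0, 13.4 and 4.35 in Het (0.68 ± 0.26, adjusted p = 0.065). These levels rose in KO beside the interferon, replication and lipid groups above, and their part in those results was not tested. In bulk RNA, fewer cells of a type and less RNA per cell cannot be told apart.

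Of 8 border macrophage and monocyte markers 4 were higher, namely Folr2, Mrc1, Ms4a7 (0.51 ± 0.11) and S100a4 (0.60 ± 0.16), with summed levels of 2884 to 3293 in KO and 2329 to 2490 in Het replicates 1, 2 and 4, and Cd163 under 1 in all 10 libraries. Oligodendrocyte lineage markers had 2 of 5 higher (Olig1 by 0.94 ± 0.21 and Cnp by 0.35 ± 0.10), with sums of 93.1 to 106.0 in KO and 73.4 to 87.9 in those Het libraries, and Mog, Mal, Olig2 and Gpr17 under 1 throughout. Cnp lost its call in the reduced fit without Het replicate 1 or 4 or KO replicate 1, 2 or 5. Among endothelial markers Pecam1 was higher (0.77 ± 0.15) and Vwf lower (-0.67 ± 0.21) of 5 tested, with Cldn5 and Emcn under 1. Vwf lost its call in the reduced fit without Het replicate 1 or 4 or KO replicate 1 or 5. Fibroblast and pericyte markers (0 of 17) and neuron markers (0 of 4) had none called in both fits. S100a8 (-1.75 ± 0.27) and Cd3d (-0.95 ± 0.21), of neutrophils and T cells, were lower, at sums of 6.58 to 12.5 for their list in KO and 20.6 to 26.5 in Het replicates 1, 2 and 4. Cd3d was highest, at 25.8, in Het replicate 5, which has the least coding content, and lost its call in the reduced fit without Het replicate 4.

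The same genotypes were compared in cultures given myelin. Those libraries are in the fits above, where they bear on the variances and weights and not on the untreated means. In the reduced fit, 1106 of the 1133 genes had the same direction after myelin (97.6%, beside 78% of all genes), and 881 of them (77.8%) were also called in that direction, 631 higher and 250 lower, while 1 was called in the opposite one. That fit called 3562 genes after myelin (32.7%), so many calls are shared with a broad difference, and it has only Het myelin replicates 3 and 4 on the Het side. Coding genes held 8.04% and 13.9% of TPM in these, against 21.7% to 25.9% in the KO myelin libraries. Library content thus moved with the genotype after myelin too, and its part in the shared directions was not tested. The weighted fit called 6874 (63.1%), with 88.5% of the Het myelin weight on replicate 3. In the reduced fit after myelin, Tnf differed by -1.99, Nfkbia by -1.64, Socs3 by -2.16, Cxcl2 by -1.67 and Ier2 by -1.71, beside -2.30, -1.56, -2.21, -1.80 and -1.70 in the reduced fit of untreated cells. Folr2 (2.08), Vsig4 (2.22), Col18a1 (2.23) and Cd36 (1.66) were also higher after myelin. Apoc2 (-2.81) and Apoc1 (-2.60) were lower. The interferon genes Ifit3 (0.64, adjusted p = 0.25), Rtp4 (0.71, adjusted p = 0.15) and Oas2 (0.51, adjusted p = 0.19) were not called after myelin, nor was Hp (-0.79, adjusted p = 0.11).

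Whether the KO minus Het difference itself changed with myelin was tested as an interaction. The weighted fit called 1608 genes (14.8%) and the reduced fit 0 (0%), with 967 at an unadjusted p under 0.05 in reduced limma and 3451 in weighted limma. The unweighted fit of all 47 libraries called 1. A change of the difference with myelin was therefore not established for any gene named here, the interferon genes and Hp included.

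**Figure D5:**
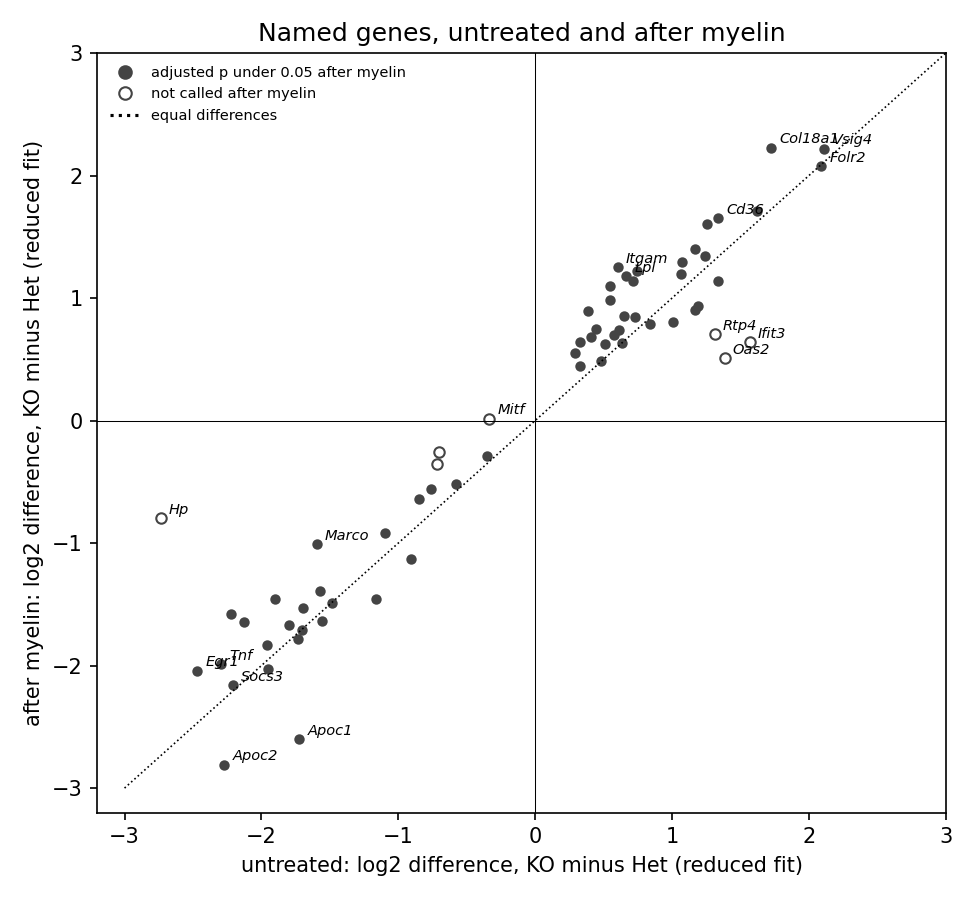
Each point is a named gene called in both fits, other than Apoe, with its log2 difference (KO minus Het) in untreated cells on the x axis and after myelin on the y axis, both from the reduced fit. Filled points were called after myelin, and the dotted line marks equal differences. Hp, at -2.74 untreated and -0.79 after myelin, lies above the line, and Ifit3, Rtp4 and Oas2 are open points below it.

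Set beside WT, the untreated KO minus Het differences fell into several orders, given as fitted differences from WT that share libraries with each other. For Tnf the values were -1.34 in KO and 0.91 in Het, for Egr1 -1.28 and 1.18, and for Cst7 -0.47 and 1.42, so that Het was the highest of the 3 genotypes. For Socs3 (-2.88 and -0.65), Cxcl2 (-2.44 and -0.61) and Ier3 (-2.54 and -1.04) both were below WT and KO was the lowest. Gadd45b (-1.96 and -0.05), Slc7a11 (-1.70 and -0.02) and Ccrl2 (-1.74 and -0.07) stood near WT in Het. Among the higher genes, Pparg (2.57 and 1.39) and Lpl (1.95 and 1.15) were above WT in both genotypes, Folr2 (2.13 and 0.06) and Cd36 (1.61 and 0.18) were above it mainly in KO, and Oas2 (0.07 and -1.20), Ifit3 (0.42 and -1.03), Col18a1 (-0.10 and -1.73) and Fcrls (0.03 and -0.64) were near it in KO and below it in Het. WT cells come from another stock, so genotype and stock cannot be told apart in these values.

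The depth of the libraries is unknown from TPM, so the noise of low genes such as Il1a or Dgat2 cannot be separated into counting and biology.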

How the data were processed

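Polyadenylated RNA of cultured microglia was sequenced after low-input amplification, per the labels' protocols. The authors deposited TPM for 53697 genes in 47 libraries, and column names gave the sample of each column. The submitters' processing notes name Salmon 0.13.1, limma 3.40.6 and mm10 without a role, while annotation and options are not stated in those notes, the labels or the table. TPM hold no read depth, so no counting interval is given.

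Each library was rescaled so that protein-coding genes without mitochondrially encoded ones summed to 1000000, and then adjusted by a trimmed mean of ratios to the other libraries (30% of ratios and 5% of levels trimmed). A gene was tested if 4 or more libraries held 5 scaled TPM or more, which left 10606 protein-coding and 281 lincRNA genes. Tests used log2(scaled TPM + 1), which understates changes of low genes. limma 3.58.1 in R 4.3.3 (with data.table, version 1.17.8) was fitted with a mean for each of 10 groups, a weight per library (arrayWeights) and trended empirical Bayes variances. Tests were two-sided, with Benjamini-Hochberg adjustment over all genes and a threshold of 0.05. Positions came from the GENCODE annotation of mm10, where all identifiers (100%) had an entry when their version was ignored and 95.98% with it. The scripts were tested on simulated data.

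The comparison, the 26 gene lists (616 entries) and the rules were chosen with earlier results of these data known. Named genes are Apoe, the 12 largest rises and 12 largest falls among coding genes called in both fits with at least 20 scaled TPM in the higher group and no overlap in the libraries of the reduced fit, up to 3 members of each list with the smallest p called in both fits (or the most abundant member), and the genes beside Apoe. Other members are named from the lists. A few members that count in the totals of their lists are not reported here. Replicate numbers did not pair the samples: deviations of same-numbered KO and Het libraries correlated at -0.141 to 0.119. Scaling, pseudocount (0.5 and 5), filters, weights, choice of libraries, the replicate number as a block and removal of single libraries were varied.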

Additional observations from a re-analysis of the deposited data

Results flagged for a closer look

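The named genes and the coding share gave 154 sets of 5 values. In 13 of them 1 library of its group stood apart by Dixon's test at the 95% level, where chance gives about 1 in 20. In the untreated KO libraries these were Pcp4l1 (24.75 scaled TPM) and Calr (372.1) in replicate 1, and Socs3 (14.9), Ier2 (193.5), Ctsk (28.99) and Egln3 (5.982) in replicate 5. In the untreated Het libraries Akr1b8 (19.52), Bcl2a1a (4.626), Ier2 (110.7), Nfkbia (334.5), Stmn1 (22.39) and Pecam1 (17.12) stood apart in replicate 5, and Rps29 (4126) in replicate 3. Both of these Het libraries have a coding share under 6%.

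The KO minus Het difference after myelin less that in untreated cells passed the threshold of the weighted limma fit for 22 named genes, and for 0 of them in the reduced fit. It was negative for Ifit3 (-1.69), Rtp4 (-1.339), Oas2 (-1.228) and Cd3d (-0.7857) on the log2 scale. It was positive for Hp (1.753), Acta2 (1.721), Aqp4 (0.9862), Itgam (0.9572), Mcm4 (0.9054), Clu (0.8105), Cd36 (0.7795), Csf1r (0.7123), Lpl (0.6949), Mcm6 (0.6827), Sqle (0.6426), Clptm1 (0.5854), Mrc1 (0.5344), Nsdhl (0.5297), Nectin2 (0.4746), Calr (0.4616), Srebf2 (0.4219) and Mitf (0.4211). Of the Het myelin weight, 88.5% lay on replicate 3, so these values rest largely on that library.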

How the results depend on the processing

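Of the 67 named genes called in untreated cells, 67 kept their call and direction with both other pseudocounts, with coding-total scaling, with the filter at 1 scaled TPM, in the reduced fit, in the weighted fit without the low-content Het libraries and with gene-by-gene weights. Without a filter 3 lost it, with the filter set within the 10 libraries 12 did, and in the unweighted fit of the 10 libraries 49 did. Mitf changed sign in both unweighted fits that kept the low-content libraries (0.01719). The count of 1782 genes became 2932 with coding-total scaling, 392 with the filter within the 10 libraries, 5024 in the unweighted fit of 47 and 40 in the unweighted fit of 10 (2707 at an unadjusted p under 0.05 in limma). Without single libraries the weighted fit gave 8 (Het replicate 1) to 6082 (Het replicate 4). Alternatives chosen after seeing the data gave 1807 with gene-by-gene weights, 759 in an unweighted fit of the 8 libraries, 636 of them among the 1133, and 574 to 1358 in the reduced fit without single libraries (574 without Het replicate 4, 1029 without 1 and 1358 without 2, and 877, 1064, 943, 1124 and 1127 without KO replicates 1 to 5), 498 to 982 of them among the 1133. In the reduced fit without Het replicate 4, 14 of the 67 lost their call. In the weighted fit 59 of the 67 lost it without Het replicate 1, 6 without replicate 2 (Srebf2, Ctsk, Mitf, Mthfd2, Olig1 and Vwf), 1 without replicate 3 (Clptm1) and 1 without KO replicate 5 (Vwf). The plain mean differences of the 10 libraries were also added after seeing the data, and 44 of the 1133 genes had the opposite sign in them, against 0 without Het replicate 5. The causes of these shifts were not tested beyond the weights given.

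The 10 libraries in a weighted fit gave 1220 genes, and 1146 with the replicate number as a block. Of the 67, 6 lost their call in that fit without the block and 10 with it. The numbers showed no pairing of the samples, and 0 of 5 KO libraries correlated best with the Het library of their number.

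Genes called within 5 Mb of Apoe, 13 in all, were 7 with no filter, 4 with the filter within the 10 libraries, 23 in the unweighted fit of 47, 1 in that of 10, 7 with the block, 6 in the fit of 8 and 1 to 35 without single libraries. The 6874 genes after myelin became 4492 unweighted, 3562 in the reduced fit, 1302 in the weighted fit without low-content libraries and 2534 to 8420 without single libraries. The 1608 interactions became 577 with the filter at 1 scaled TPM, 50 with no filter, 1 unweighted, 0 in the reduced and 0 in the weighted fit without low-content libraries (limma, with 967 at an unadjusted p under 0.05 in the reduced fit), and 0 to 5352 without single libraries. The coding share difference of 10.15 points was 5.059 without low-content Het libraries and 7.59 to 12.07 without single libraries, where exact permutation p passed 0.05 without KO replicate 1, 3 or 4. The Apoe difference ranged from -9.436 to -8.689 without single libraries. Read depth, which TPM do not hold, limits the reading of low genes.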
